A study of Astyanax mexicanus with 18 samples.

Results

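Livers of surface fish, the eyed river form of Astyanax mexicanus, were compared between starved fish and fish refed after the same fast, with 3 RNA-seq libraries each. The comparison takes 6 of the 18 libraries of the series, chosen by their labels, and describes all genes with at least 1 TPM (transcript abundance scaled to a fixed total per library) in at least 3 of the 6. The other libraries are 6 RNA-seq libraries of Pachón cavefish, a blind cave population of the same species, and 6 ChIP-seq libraries that were not analysed here. The labels name no mutation or transgene. All fish were kept on a fixed pellet ration of 10 mg per feeding, and were then fasted for 4 days. Starved fish were dissected at the end of this fast, and refed fish received 1 further meal of 10 mg and were dissected 3 hours later. Age is given as 4 months. The labels state 3 refed surface fish and nothing more on how replicates relate, so the p-values measure the spread between these libraries. A fed state and a recent meal cannot be told apart here, since no library comes from a fish that was fed throughout.

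The liver of a fasted vertebrate lives on stored fuel: it oxidizes fatty acids, releases glucose and breaks down its own proteins and organelles by autophagy, while the kinase complex mTORC1 is held inactive. Amino acids and insulin after a meal switch this around within hours. mTORC1 then promotes ribosome production and translation and blocks autophagy, and Akt, the kinase downstream of the insulin receptor, keeps FoxO transcription factors out of the nucleus. In what follows the values of a gene are given in the order of replicates 1, 2 and 3 of each group.

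The libraries were of liver by their markers. The fatty acid binding protein gene fabp10a, the marker of fish hepatocytes, was the most abundant transcript in 5 of the 6, and 18 of 19 hepatocyte markers passed the expression filter. Of 16 skeletal muscle markers 7 were at 0 in all libraries, and the summed muscle markers stayed between 0.26 and 0.53 TPM. Between 10952 and 12123 genes reached 1 TPM per library, and the 10 most abundant genes held 26.6% to 32.8% of TPM. Log2 values correlated across genes with r from 0.894 to 0.953 within a group and from 0.856 to 0.898 between groups. TPM carry no sequencing depth, which is therefore unknown.

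A pair of libraries, starved replicate 2 and refed replicate 3, stood apart in some marker genes. By correlation within its group refed replicate 3 did not, with r from 0.919 to 0.953, against 0.919 to 0.929 for refed replicate 1. Other libraries also had extremes in single genes, such as 121 TPM of fabp2 in starved replicate 3. Starved replicate 2 held 4203 TPM of the egg yolk precursor gene vtg3, against 0.32 to 18.4 TPM in the other 5, and 120.2 TPM of the oestrogen receptor gene esr1, against 0.62 to 1.52 TPM. Its summed hepatocyte markers were 118092 TPM, against 233523 to 287286 TPM elsewhere. Its adipocyte markers summed to 1656 TPM, against 412 to 928 TPM in the others, but 1410 TPM of this was fabp11a, and without that gene it was the lowest library at 246 TPM and refed replicate 3 the highest at 616 TPM. Refed replicate 3 held 775 TPM of macrophage and Kupffer cell markers, against 125 to 428 TPM in the others, of which 574 TPM came from 2 entries named MFAP4 (1 of many). Without these entries it held 201 TPM, and starved replicate 1 was the highest at 396 TPM. Starved replicate 1 also had the highest median deviation of the macrophage list from the mean of the 6 libraries, 1.06 on the log2 scale against 0.44 in refed replicate 3. These genes and libraries were singled out after their values were seen, and the part of these differences in the results below was not tested. In bulk tissue fewer cells of a type and less RNA per cell cannot be told apart.

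Of 15 lists of cell type markers, 2 had summed levels that did not overlap between the feeding states, with an exact two-sided permutation p of 0.1, the smallest that 3 against 3 libraries allow. The 14 lymphocyte markers summed to 8.96, 8.84 and 7.6 TPM in starved fish and to 13.03, 11.9 and 17.5 TPM in refed fish. That list included cd3eap, whose symbol recalls a T cell gene but which encodes an RNA polymerase I subunit, and which accounts for 1.67 to 2.66 TPM of the starved and 6.08 to 10.3 TPM of the refed sums. Without cd3eap the sums of the remaining lymphocyte markers overlapped between the groups, so the separation of this list came from that gene. The other list without overlap was the egg protein list of 2 genes, whose 3 starved sums of 4.87, 4323 and 19.4 TPM all lay above the refed ones. The other 13 lists, hepatocyte markers included (exact permutation p = 0.2), overlapped.

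Among 11804 tested genes, 406 were higher and 571 lower in refed fish (limma on log2(TPM + 1), adjusted p under 0.05 by Benjamini and Hochberg). This is 8.28% of tested genes, 3.44% higher and 4.84% lower, and it serves as the background for every list that follows. For comparison, the libraries of the groups did not overlap for 34.4% of tested genes, 15.9% upwards and 18.5% downwards. Every gene called in this fit of 6 libraries was among these. For such genes, said below to have risen or fallen, the 3 refed libraries thus lay on one side of the 3 starved ones. It does not hold for every gene called only in the other fits below. The share of higher calls was 41.6% on TPM as deposited but 54.2% with median-of-ratios scaling, 52.0% with quantile normalization and 54.0% when the 20 most abundant genes were left out of the TPM total. Across the tested genes as a whole the median log2 change was -0.04.

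**Figure D1:**
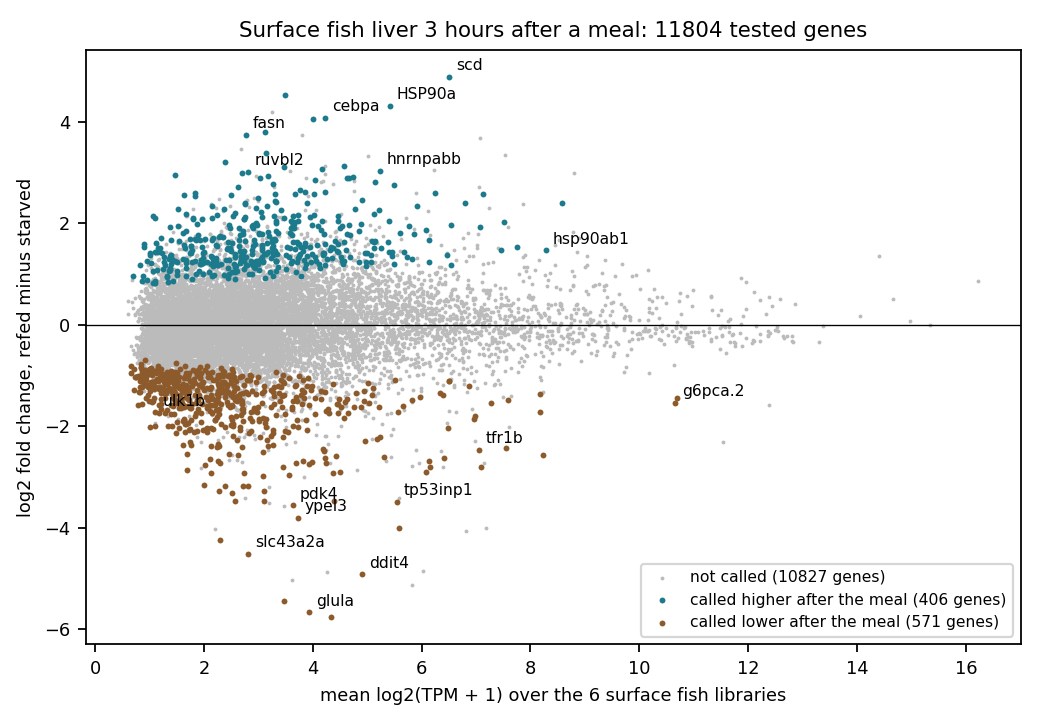
Log2 fold change between refed and starved surface fish (3 libraries each) against mean log2(TPM + 1), 1 point per tested gene, with 406 genes called higher and 571 called lower in colour and some genes labelled. Called genes spread over most of the range of expression, scd lies highest among the labelled genes and glula lowest, and few of the most abundant genes were called.

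The estimated changes of called genes were large, which partly follows from their selection. With 3 libraries per group, small changes seldom pass the threshold. At least a 2-fold change was seen for 382 of the higher and 502 of the lower genes, and at least an 8-fold change for 14 and 20. The same counts over all tested genes were not made. The median log2 fold change was 1.51 among the higher genes and -1.37 among the lower genes. Of the lower genes 215 averaged under 1 TPM in refed fish, and of the higher genes 66 averaged under 1 TPM in starved fish. Such genes passed the expression filter through the group where they were high, so these counts partly follow from the filter. Together the higher genes took 0.271%, 0.397% and 0.350% of TPM in starved fish and 1.34%, 1.14% and 1.52% in refed fish. The lower genes went from 1.77%, 2.00% and 1.87% to 0.516%, 0.445% and 0.611%. A mean of 100 TPM in a group was reached by 22 higher and 30 lower genes, 5.32% of the called against 7.70% of all tested genes.

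The number of calls depended on the libraries fitted. It was 261 without starved replicate 1, 597 without starved replicate 2, 63 without starved replicate 3, 437 without refed replicate 1, 450 without refed replicate 2 and 3 without refed replicate 3. Of the 3 left without refed replicate 3, glula and an unnamed gene (ENSAMXG00000030071) belonged to the 977, and the third was the glucokinase gene gck. When all 12 RNA-seq libraries shared 1 estimate of the spread, 1221 genes were higher and 1283 lower (10.3% and 10.9% of tested genes, 21.2% together), and 955 of the 977 were among them in the same direction. The calls and list counts below therefore rest on all 6 libraries. Without refed replicate 3 the lists keep no call but those of glula and gck.

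The genes with the largest rises included those of fatty acid synthesis, a chaperone gene and a transcription factor gene. The largest was scd (ENSAMXG00000004360), which puts a double bond into saturated fatty acids, at 3.89, 29.9 and 30.2 TPM in starved and 856, 548 and 254 TPM in refed fish. Its lowest refed library was several times its highest starved one, and its log2 fold change was 4.88 ± 0.80 (SE, limma adjusted p = 0.0203). The fatty acid synthase gene fasn (ENSAMXG00000012577) was at 0.88, 0.79 and 0.95 TPM against 91.5, 14.4 and 10.1 TPM. The starved fasn values were tight, the refed ones were spread with replicate 1 far above the others, and the log2 fold change was 3.75 ± 0.74 (limma adjusted p = 0.0306).

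HSP90a, a cytosolic chaperone gene, rose from 10.4, 3.82 and 15.1 TPM to 129, 204 and 258 TPM (log2 fold change 4.31 ± 0.50, limma adjusted p = 0.0125). The transcription factor gene cebpa, which keeps hepatocytes and fat cells differentiated, rose from 3.22, 1.08 and 9.83 TPM to 47.6, 132 and 70.0 TPM, by 4.08 ± 0.64 (limma adjusted p = 0.0184). Both were low in all 3 starved and high in all 3 refed libraries. Genes of amino acid use were also near the top. tdh, the threonine dehydrogenase, went from 0.92, 1.23 and 2.01 TPM to 46.9, 12.5 and 52.7 TPM (3.80 ± 0.54, limma adjusted p = 0.0167), a call that ended when all 12 libraries were fitted (limma adjusted p = 0.0543). The ornithine aminotransferase gene oat rose from 12.9, 2.23 and 4.33 TPM to 73.4, 43.0 and 42.6 TPM, by 3.07 ± 0.54 (limma adjusted p = 0.0232).

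The other largest rises were of genes with different roles. ruvbl2, an ATPase of chromatin remodelling and of the assembly of ribonucleoproteins, rose from 0.73, 3.02 and 1.18 TPM to 19.1, 13.6 and 26.2 TPM, by 3.01 ± 0.39 (limma adjusted p = 0.0151). Its partner ruvbl1 rose by 1.91. The RNA-binding protein gene hnrnpabb rose by 3.04 ± 0.39, from 8.18, 19.1 and 11.6 TPM to 127, 73.2 and 134 TPM (limma adjusted p = 0.0151). ATAD3A, a mitochondrial membrane ATPase, rose by 3.10 ± 0.48 and tomm40l, a protein import channel of the mitochondrial outer membrane, by 2.93 ± 0.59. The thioredoxin-domain gene txndc9 rose by 2.89 ± 0.42, golt1bb, of transport in the Golgi, by 2.99 ± 0.53 and the uncharacterized zgc:194224 by 3.13 ± 0.44 (limma adjusted p of 0.0325 or lower for these 5). RF00281, a non-coding RNA listed at 0 in all starved libraries, was at 2.09, 10.3 and 12.01 TPM in refed fish. An entry named HBE1 (1 of many), ENSAMXG00000043907, is a globin gene that may share reads with other globin copies. It was at 9.74, 0 and 0.2 TPM in starved and 16.8, 78.5 and 111 TPM in refed fish. Other entries of that name were not called. The most abundant, ENSAMXG00000016437, overlapped at 887, 2421 and 511 TPM against 568, 1291 and 836 TPM. ENSAMXG00000038014 was at 1.07, 0.74 and 0.61 TPM against 3.21, 15.6 and 1.53 TPM. The summed erythrocyte markers, of which ENSAMXG00000043907 was the only one of 15 tested to be called, overlapped between the groups at 1018 to 3029 TPM and 980 to 2028 TPM.

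**Figure D2:**
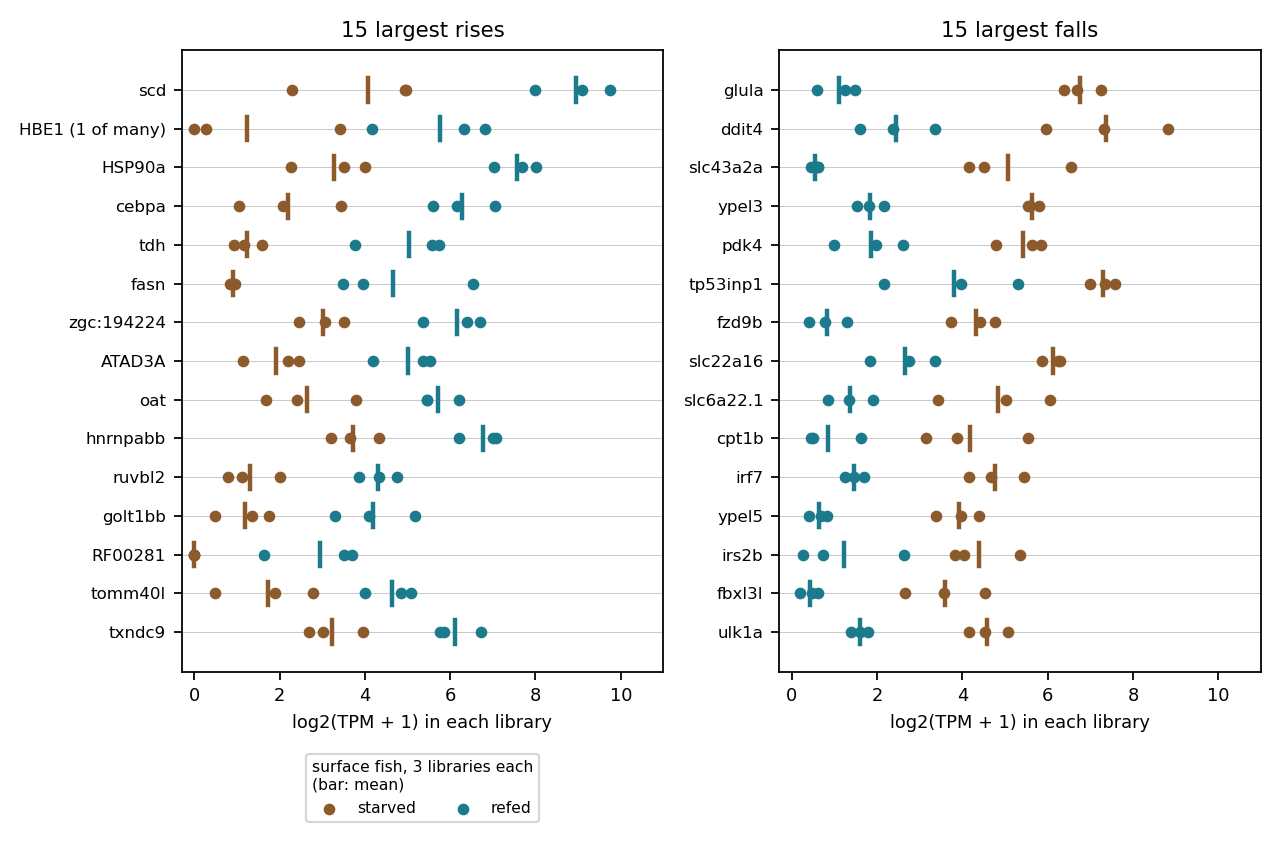
Log2(TPM + 1) in each of the 6 libraries for the 15 named genes with the largest rises (left) and the 15 with the largest falls (right), starved in brown and refed in blue, with bars at the group means. In every row the 3 refed points lie on one side of the 3 starved points, with the widest gap for glula, whose refed values were at most 1.78 TPM.

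The fall of glula was the largest among genes with a symbol. This gene (ENSAMXG00000019301) encodes glutamine synthetase, which fixes ammonia into glutamine, and it stood at 152, 102 and 81.9 TPM in starved and 1.36, 0.5 and 1.78 TPM in refed fish. It was high in every starved and near the filter in every refed library, and the log2 difference was -5.67 ± 0.35 (limma adjusted p = 0.00531). The unnamed gene ENSAMXG00000030071 moved much like it, from 211, 131 and 116 TPM to 2.07, 0.71 and 2.83 TPM (-5.77 ± 0.39, limma adjusted p = 0.00531). Whether these entries share reads was not tested.

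Other steep falls were those of ddit4, ypel3, ypel5 and tp53inp1. ddit4 (REDD1 in mammals), which turns mTORC1 off under stress, was at 455, 159 and 61.4 TPM in starved and 4.15, 2.05 and 9.32 TPM in refed fish. The starved values ranged widely but all lay above the refed ones, and the log2 fold change was -4.93 ± 0.76 (limma adjusted p = 0.0182). ypel3 fell by 3.80 ± 0.25 on the log2 scale, from 45.3, 46.8 and 54.4 TPM to 3.45, 1.89 and 2.51 TPM (limma adjusted p = 0.00531), with little spread in either group. ypel5, which belongs with an E3 ubiquitin ligase complex in mammals, fell by 3.28 ± 0.30. tp53inp1, a p53 target that acts in autophagy, fell by 3.49 ± 0.73. On the log2 scale its refed values of 38.3, 14.7 and 3.45 TPM differed more among themselves than the starved 162, 189 and 126 TPM.

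Fuel and transport genes were among the rest. The amino acid transporter gene slc43a2a was at 21.8, 16.9 and 92.4 TPM in starved and 0.53, 0.36 and 0.52 TPM in refed fish (-4.52 ± 0.59, limma adjusted p = 0.0151). pdk4, the kinase that blocks pyruvate dehydrogenase and so spares glucose, was at 26.8, 56.2 and 49.0 TPM against 5.07, 1 and 2.95 TPM (-3.57 ± 0.47, limma adjusted p = 0.0151). For both genes the groups were separated by a wide gap. cpt1b, which brings fatty acids into mitochondria, fell by 3.32 ± 0.63, the carnitine and organic cation transporter gene slc22a16 fell by 3.48 ± 0.40 and slc6a22.1 fell by 3.48 ± 0.65. Signalling genes among the largest falls were fzd9b, a receptor for Wnt proteins (-3.48 ± 0.35), irf7, a regulator of the interferon response (-3.29 ± 0.36), and irs2b, which links the insulin receptor to its kinases (-3.18 ± 0.68). The F-box gene fbxl3l (-3.15 ± 0.46) and ulk1a, a kinase gene of autophagy (-2.99 ± 0.29), completed them. The largest limma adjusted p of these 8 was 0.0363.

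In absolute TPM the order was different. The largest falls were of g6pca.2, a glucose-6-phosphatase gene, at 2566, 2515 and 3261 TPM in starved and 873, 632 and 1526 TPM in refed fish, and of diabloa, the mitochondrial apoptosis gene, at 2611, 2634 and 3009 TPM against 757, 874 and 1525 TPM. Refed replicate 3 was the highest refed library for both, yet below every starved one, and the log2 fold changes were -1.55 ± 0.35 and -1.45 ± 0.30 (limma adjusted p = 0.0420 and 0.0346). nupr1b, a stress-induced chromatin protein gene, fell by 2.57 ± 0.60, with 1581 TPM in starved replicate 2 against 384 and 640 TPM in the other starved libraries. The cytochrome P450 gene cyp2u1 fell by 2.81 ± 0.53, the cathepsin gene ctsla (1 of many) fell by 1.71 ± 0.34 and zgc:162608 fell by 2.44 ± 0.51, the last a call that ended with 12 libraries fitted.

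The rises largest in TPM, after scd, included abundant chaperones and RNA-binding proteins. hsp90ab1, the constitutive HSP90, rose from 168, 216 and 177 TPM to 489.9, 474 and 589 TPM, by 1.47 ± 0.24 (limma adjusted p = 0.0202). ncl, nucleolin, the major protein of the nucleolus, rose from 63.7, 122 and 94.5 TPM to 474, 234 and 456 TPM, by 2.03 ± 0.39 (limma adjusted p = 0.0272). In both, every refed library was far above every starved one. hspe1, the mitochondrial HSP10, rose by 1.93 ± 0.36, hnrnpaba by 1.54 ± 0.28 and rbp5, a retinol-binding protein gene, by 1.46 ± 0.31. The uncharacterized genes si:ch211-153b23.5 and si:dkey-56m19.5 rose by 2.58 ± 0.46 and 2.41 ± 0.46.

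Of the 977 called genes, 255 belonged to at least 1 of 46 pathway lists and 722 to none, 166 of all called genes having no symbol. The 46 lists held 2244 distinct tested genes, of which 143 rose and 112 fell. The lists are described below by role, each by its count of called members and its median log2 fold change, beside the 3.44% higher, the 4.84% lower and the median of -0.04 of all tested genes.

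**Figure D3:**
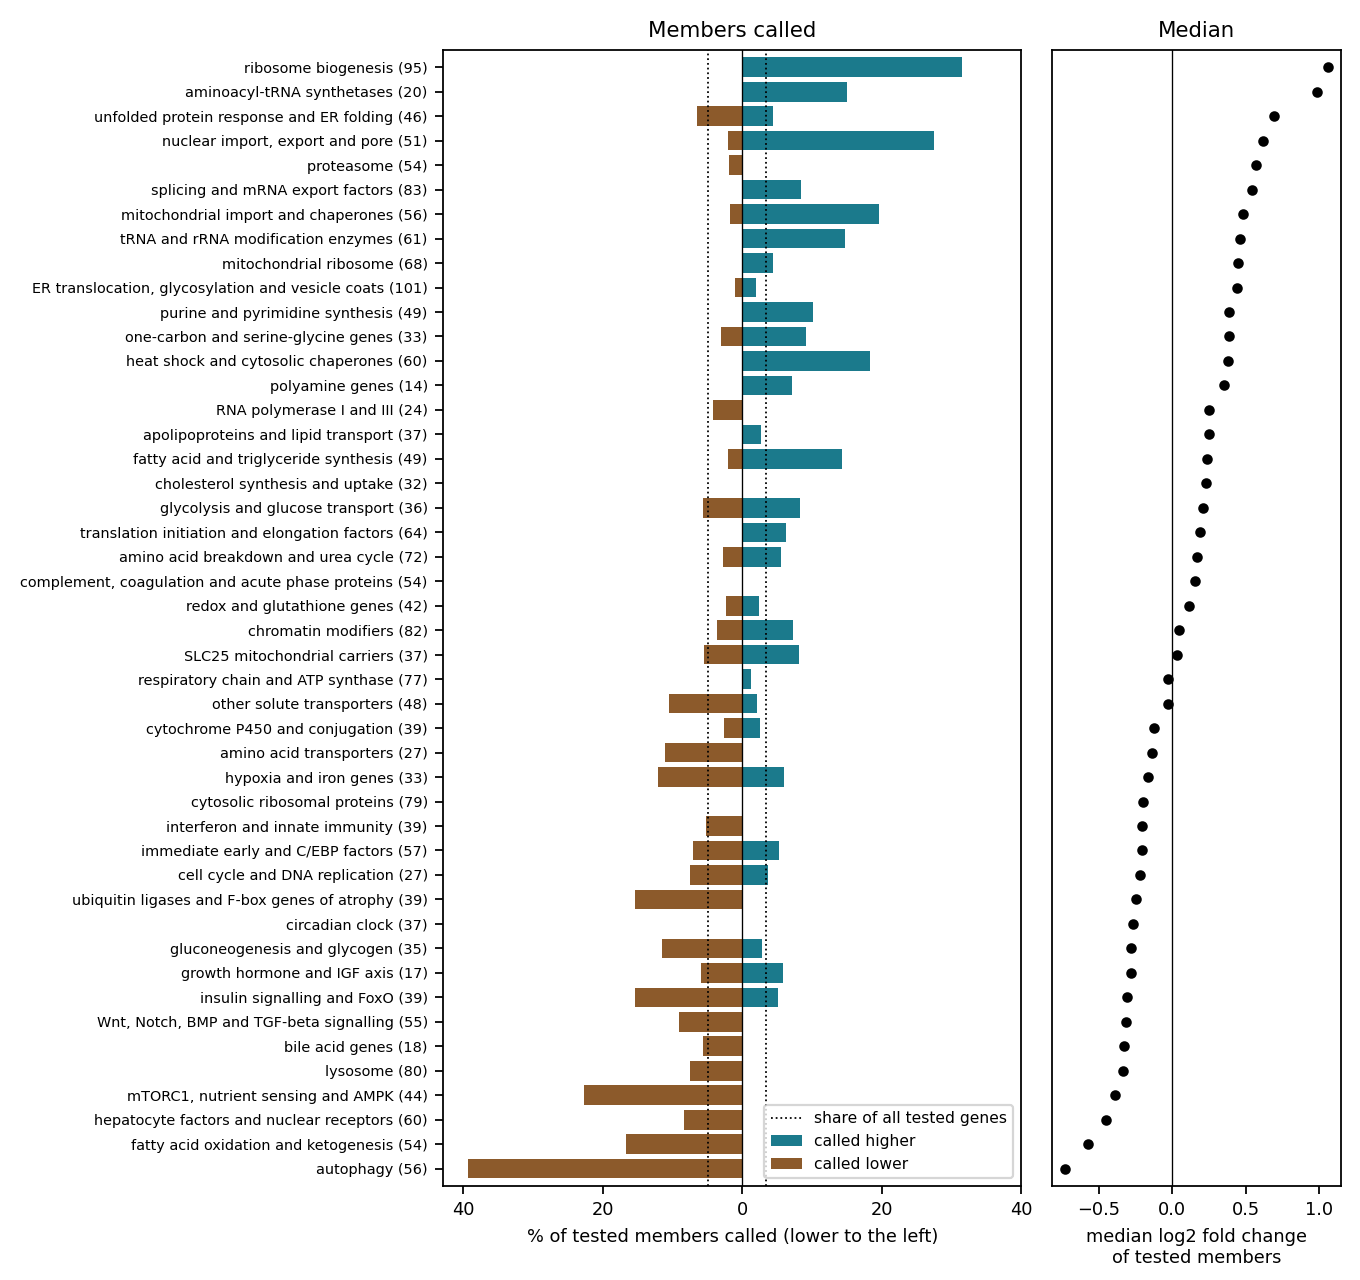
Share of tested members called higher (right, blue) or lower (left, brown) in refed surface fish for 46 gene lists, with the number of tested members in brackets, dotted lines at the shares of all tested genes and the median log2 fold change on the right. Ribosome biogenesis has the highest share of members called higher (30 of 95) and autophagy the highest share called lower (22 of 56).

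Ribosome biogenesis was the list with the most rises. Of 95 tested members, which build ribosomal subunits in the nucleolus, 30 rose, none fell and 65 passed no test, with a median log2 fold change of 1.06. With 12 libraries fitted 55 rose and 1 fell, and with starved replicate 2 left out 13 rose. noc2l, of large subunit assembly, was at 2.07, 3.26 and 3.42 TPM in starved and 17.3, 11.13 and 15.9 TPM in refed fish (log2 fold change 2.01 ± 0.27, limma adjusted p = 0.0155). The small subunit processing genes utp25, rrp9 and wdr75 rose by 1.91 ± 0.30, 1.97 ± 0.32 and 1.95 ± 0.33. gar1, of the H/ACA particles that turn uridine into pseudouridine, rose by 2.57 ± 0.50, and fbl, fibrillarin, the rRNA methylase, by 1.80 ± 0.37. The other 23 called members besides ncl were ddx54, bop1, nat10, utp20, tbl3, pwp2h, nle1, tsr2, nol6, wdr3, ftsj3, pes, rrp12, utp15, ddx10, utp6, gnl3, ddx49, mak16, mphosph10, nop58, mrto4 and EBNA1BP2 (1 of many), each rising between 1.06 and 2.00. The list was lower in all starved libraries, with median deviations from the mean of the 6 libraries of -0.77, -0.41 and -0.49, than in refed ones, with 0.87, 0.05 and 0.65. Refed replicate 2 was thus the lowest refed library for this list, and it was also the lowest refed library for 273 of the 406 higher genes. Over all tested genes its median deviation was the lowest too, at -0.097 against -0.049 and 0.116 in refed replicates 1 and 3. The same count over all tested genes was not made, and the part of this shift in the 273 was not tested.

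The genes for the cytosolic ribosomal proteins themselves gave no call. Of 79 tested none passed the limma threshold in either direction (2 at an unadjusted p under 0.05), with 1 higher when 12 libraries were fitted, and the median was -0.20. Only 2 of the 79 were above 0, so the changes were small but nearly all downward. The groups did not overlap for 20 members downwards and 1 upwards, beside 18.5% and 15.9% of all tested genes. The median stayed between -0.27 and -0.12 with 1 library left out and between -0.14 and -0.12 under the 3 scalings. With both starved replicate 2 and refed replicate 3 left out it was -0.06, close to the -0.04 of all tested genes. The median deviations of the list overlapped between the groups, at 0.03 in refed replicate 2 and -0.03 in starved replicate 3. Of the 24 tested members of the RNA polymerase I and III list none rose and gtf3c3, of the polymerase III factor TFIIIC, fell by 0.93 ± 0.21. With 12 libraries 6 of these 24 were higher and 1 lower. The RNA polymerase I subunit gene cd3eap, counted above with the lymphocyte markers, was not in this list and did rise. It was at 1.67, 2.45 and 2.66 TPM in starved and 10.26, 6.08 and 8.93 TPM in refed fish (limma adjusted p = 0.0219).

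**Figure D4:**
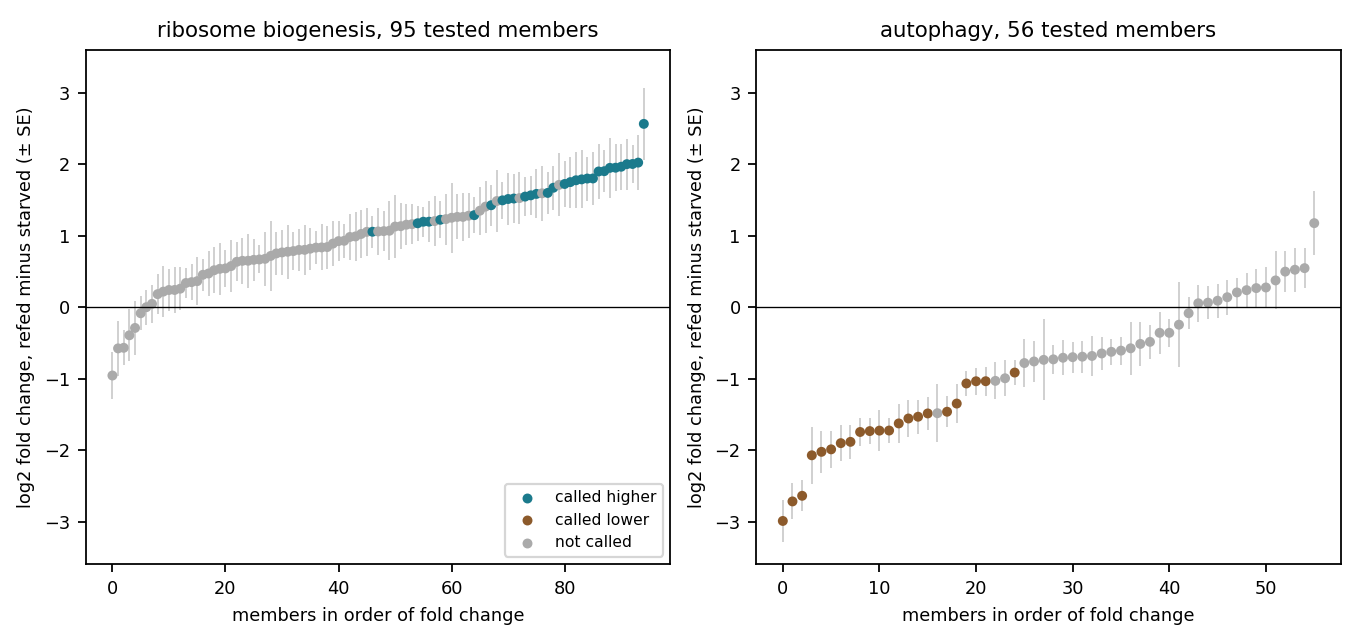
Log2 fold change ± SE of every tested member of the ribosome biogenesis list (95, left) and the autophagy list (56, right), sorted by size and coloured by call. The 30 called biogenesis members are all above 0 and the 22 called autophagy members are all below 0, and many uncalled members lie on the same side with smaller values.

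Genes of traffic through the nuclear pore came next by their share of rises. Of 51 members of nuclear import, export and the pore 14 rose and 1 fell, with a median of 0.62 and 24 and 1 with 12 libraries. The import genes nutf2, which returns the GTPase Ran to the nucleus, and kpna3, an importin alpha, rose by 1.55 ± 0.25 and 1.53 ± 0.27, and rcc1, the exchange factor of Ran, rose by 2.02 ± 0.38. nutf2 was at 7.5, 8.43 and 6.46 TPM in starved and 20.8, 21.5 and 29.6 TPM in refed fish, a clear gap with little spread. ipo4, rangap1b, cse1l, xpot, xpo1a and the pore subunits nup93, nup133, nup85, nup155, nup205 and nup43 rose by 1.17 to 2.12. By symbol alone, 6 of 17 tested nup genes rose (35.3%). These are the pore subunits just named, so the count adds nothing to the list result.

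The exportin pair moved in opposite directions. xpo1a was at 2.2, 4.63 and 1.69 TPM in starved and 9.96, 6.92 and 12.7 TPM in refed fish (log2 fold change 1.54 ± 0.35, limma adjusted p = 0.0432). xpo1b, its other copy, was at 6.6, 5.95 and 5.7 TPM against 1.41, 1.75 and 2.02 TPM (log2 fold change -1.38 ± 0.20, limma adjusted p = 0.0167). In starved fish every library had more xpo1b than xpo1a and in refed fish every library had more xpo1a, as TPM, which are per length. Both copies encode the receptor that carries proteins with leucine-rich export signals, and some ribosomal subunits, out of the nucleus. Reads of near-identical stretches can be shared out between copies by the quantification.

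Lists of splicing, tRNA and translation genes had fewer calls. Among 83 splicing and mRNA export genes 7 rose and none fell (31 and 1 with 12 libraries), with a median of 0.55: hnrnpabb, hnrnpaba, srsf6b, the U2 particle genes sf3b2, sf3b3 and sf3b4, and prpf19. sf3b2 was at 11.7, 16.1 and 11.7 TPM in starved and 46.5, 39.0 and 56.0 TPM in refed fish (1.77 ± 0.26, limma adjusted p = 0.0170). The starved sf3b2 values were close together and well under the refed ones. Of 20 aminoacyl-tRNA synthetases, which load tRNAs with amino acids, 3 rose (WARS by 2.41 ± 0.33, mars by 2.72 ± 0.41 and rars by 2.05 ± 0.32) and the median was 0.99. With 12 libraries 9 of these 20 rose, and 7 rose without starved replicate 2, beside 291 of all 11804 tested genes. No synthetase was among the 8 genes called higher without starved replicate 3.

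Of 61 tRNA and rRNA modification enzymes 9 rose and none fell, with a median of 0.47 (18 and 3 with 12 libraries). mettl2a, a tRNA methylase, was at 1.88, 3.37 and 3.91 TPM in starved and 17.9, 15.3 and 25.3 TPM in refed fish, far apart (2.34 ± 0.30, limma adjusted p = 0.0151). Both subunits of the adenosine methylase of tRNA, trmt6 and trmt61a, rose, by 1.68 ± 0.33 and 1.18 ± 0.22. qtrt1, which inserts queuosine, rose by 1.81 ± 0.26, and pus1, pus10, ctu2, thumpd1 and dus4l by 0.87 to 1.47. Among 64 translation factors 4 rose and none fell (14 and 1 with 12 libraries), with a median of 0.19: eif4e1c, a cap-binding protein of the eIF4E family, by 2.76 ± 0.43, the release factor gene etf1b by 1.69 ± 0.28, eif4g2a by 1.33 ± 0.28 and eef1e1 by 0.87 ± 0.17. eif4e1c went from 1.24, 4.75 and 2.91 TPM to 24.0, 15.8 and 36.4 TPM, and its groups were well separated (limma adjusted p = 0.0184).

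Of 49 genes of purine and pyrimidine synthesis, which makes the building blocks of nucleic acids, 5 rose and none fell (median 0.39, 10 and 3 with 12 libraries). These were the adenylosuccinate synthase genes adssl, by 2.12 ± 0.46, and adssl1, by 1.65 ± 0.25, the CTP synthase gene ctps1a, by 1.97 ± 0.33, prps1b, which makes the ribose donor of both pathways, by 2.15 ± 0.40, and nme3 by 1.298 ± 0.24. adssl1 was at 16.3, 24.1 and 17.6 TPM in starved and 62.9, 64.5 and 58.1 TPM in refed fish, with refed values close to each other. In the one-carbon list 3 of 33 rose and 1 fell. The folate enzyme genes MTHFD1 (1 of many) and aldh1l2 rose by 1.42 ± 0.33 and 1.43 ± 0.32 and mat2al, a methionine adenosyltransferase, by 1.21 ± 0.28. The spermine synthase gene sms, the only call among 14 polyamine genes, rose by 1.90 ± 0.32.

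Protein arginine methylases and other chromatin genes were mixed. Of 82 members 6 rose and 3 fell, and the median had no steady sign across libraries left out. prmt1, the main arginine methylase, was at 4.71, 12.8 and 8.56 TPM in starved and 87.9, 41.1 and 80.7 TPM in refed fish (2.89 ± 0.43, limma adjusted p = 0.0173). Every refed value of prmt1 was at least 3 times the highest starved one. prmt7, ezh2, smarca4a, ruvbl1 and ruvbl2 also rose, whereas the mitochondrial deacetylase gene sirt3 fell by 1.66 ± 0.25 and the histone H3 lysine methylase genes ehmt1a and ehmt2 fell by 1.01 and 0.95.

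Of the lists with mitochondrial genes, import and chaperones had the largest share of called members (21.4%). Fatty acid oxidation had 16.7% and the SLC25 mitochondrial carriers 13.5%. Of 56 genes of mitochondrial import and chaperones 11 rose and 1 fell (20 and 1 with 12 libraries), with a median of 0.48. hspd1, the HSP60 that folds imported proteins together with hspe1, was at 14.9, 44.1 and 25.7 TPM in starved and 142, 104 and 162 TPM in refed fish, all refed values above all starved ones (2.33 ± 0.42, limma adjusted p = 0.0236). The import receptor gene tomm34 rose by 2.33 ± 0.27, from 0.49, 1.3 and 1.24 TPM to 9.68, 6.71 and 10.9 TPM. tomm22, timm50, dnaja3b, grpel1, hspa9 and the protease gene lonp1 rose by 1.38 to 2.26, and the disaggregase gene CLPB fell by 1.09. Of 68 mitochondrial ribosome genes 3 rose (mrps27, mrpl45 and mrps6, by 1.44, 1.32 and 1.29) and none fell, and 14 rose and 1 fell with 12 libraries. Among 77 genes of the respiratory chain and ATP synthase cycsb, cytochrome c, was the only call, at 2.15 ± 0.45.

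Mitochondrial carriers of the SLC25 family were called in both directions, 3 of 37 higher and 2 lower. slc25a32a, a folate and flavin carrier, was at 45.8, 40.96 and 41.9 TPM in starved and 7.17, 9.39 and 4.61 TPM in refed fish, with starved values within a narrow band (-2.49 ± 0.29, limma adjusted p = 0.0125). slc25a48 fell by 2.68 ± 0.41, from 237, 205 and 114 TPM to 42.7, 21.0 and 21.0 TPM. Those that rose were the basic amino acid carrier gene slc25a29, by 1.87 ± 0.24, slc25a44b, related to a branched-chain amino acid carrier of mammals, by 1.27 ± 0.27 and the ATP-Mg/phosphate carrier gene slc25a25b by 1.24 ± 0.27.

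Chaperones of the HSP90 and HSP70 machines, with their partners, were among the rises. Of 60 genes of the heat shock and cytosolic chaperone list 11 rose and none fell, and the median over all 60 was 0.38. Besides HSP90a and hsp90ab1 these were the HSP90 co-chaperone genes chordc1a, ahsa1b, stip1 and ptges3b, the HSP70 exchange factors hspa4a and hspa4b, the J-domain genes dnajb1b and dnajc21, and hspa12b. chordc1a was at 0.64, 0.74 and 0.17 TPM in starved and 6.04, 6.32 and 5.02 TPM in refed fish, with tight refed values (2.179 ± 0.23, limma adjusted p = 0.0111). hspa4a rose from 5.46, 7.74 and 6.78 TPM to 63.2, 28.8 and 51.1 TPM, by 2.61 ± 0.34 (limma adjusted p = 0.0151). All 3 refed libraries of hspa4a were above every starved library. HSF1, the transcription factor of heat shock genes, had 9.65, 9.25 and 7.52 TPM and 9.73, 9.17 and 11.2 TPM, overlapping values (0.17 ± 0.22, limma adjusted p = 0.648).

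Chaperones of the endoplasmic reticulum (ER) were highest in 1 library of each group. Among 46 genes of the unfolded protein response 2 rose and 3 fell, with a list median of 0.69. With 12 libraries fitted 6 rose and 3 fell. When the 2 libraries that stood apart, starved replicate 2 and refed replicate 3, were left out of that fit, a choice made after seeing the data, 12 rose and 3 fell, beside 7.11% of all tested genes higher and 6.42% lower. Its median deviations were -0.86, 0.77 and -0.58 in starved and -0.02, -0.12 and 1.09 in refed libraries, so that starved replicate 2 and refed replicate 3 were the highest. For 28 of the 46 members (60.9%) these were the 2 highest of the 6 libraries, against 11.4% of all tested genes. hspa5 (BiP), the main ER chaperone and chosen here after its values were seen, had 6.05, 191.5 and 38.9 TPM in starved and 257, 229 and 1877 TPM in refed fish. The refed libraries were above the starved ones but the spread was wide, and limma gave 3.67 ± 1.29 (adjusted p = 0.120, and 0.0372 with 12 libraries). The called members were dnajb9a, by 2.29 ± 0.47, and dnajc10, by 1.34 ± 0.28, which rose, and ern2, mbtps1 and creb3l3b, which fell by 0.87 ± 0.18, 1.03 ± 0.22 and 1.26 ± 0.29.

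Of 101 genes of ER translocation, glycosylation and vesicle coats 2 rose (sec23a by 1.56 ± 0.34, alg1 by 1.14 ± 0.23) and alg14 fell by 1.46 ± 0.26. This count moved with the fit, as did the count over all 11804 tested genes. Under the 3 scalings 6 to 8 rose, a share near that of all genes, of which 735 to 827 rose. Without starved replicate 2, 6 rose, beside 291 of all genes. With 12 libraries 18 rose and 2 fell, beside 10.3% of all genes higher. When the same pair of libraries was left out of the latter fit 26 rose and 3 fell, beside 7.11% of all genes higher. That pair was the highest for 67 of the 101 members (66.3%). In the proteasome list none of 54 members rose and nfe2l1a, whose mammalian counterpart switches proteasome genes on, fell from 9.17, 21.4 and 14.3 TPM to 3.4, 2.3 and 2.02 TPM (-2.11 ± 0.34, limma adjusted p = 0.0190). The proteasome median was 0.57, and 12 members were higher and 2 lower with 12 libraries fitted, 8 and 1 without that pair. Refed replicate 3 was the highest library of this list too, with a median deviation of 0.77.

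**Figure D5:**
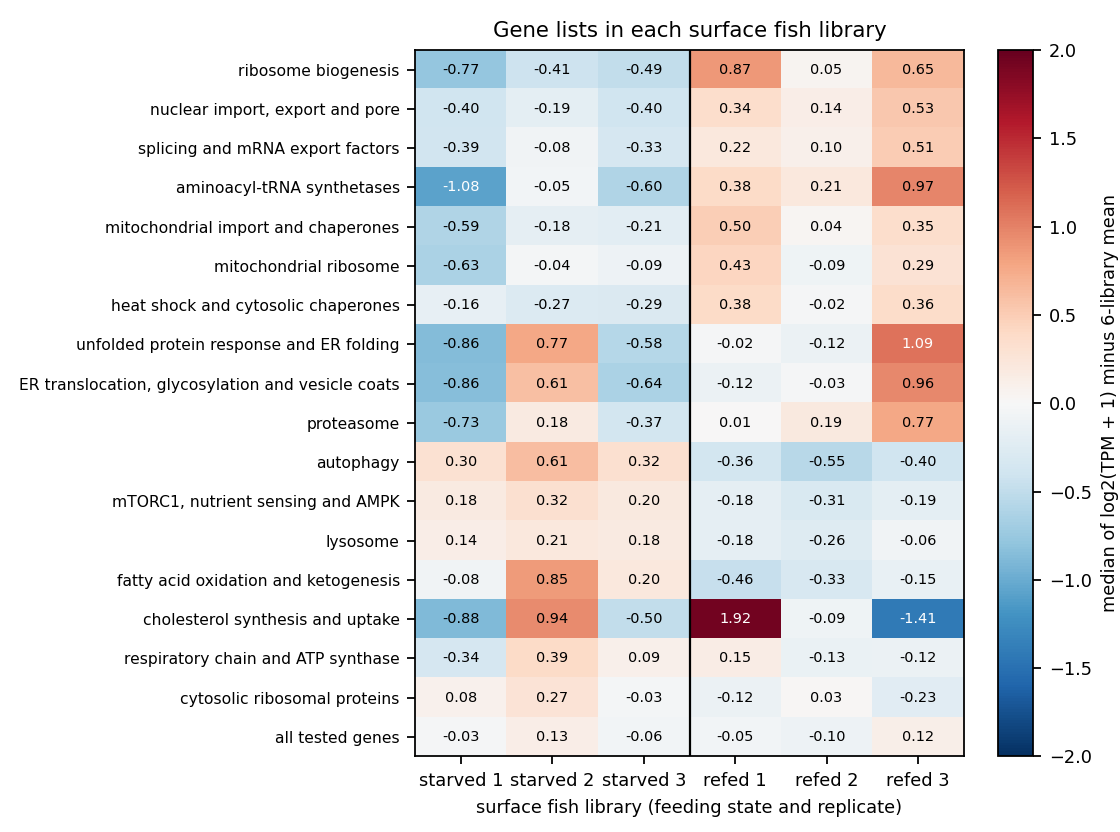
Median over list members of log2(TPM + 1) minus the mean of the 6 libraries, for 17 gene lists and all tested genes, with the 3 starved libraries left and the 3 refed libraries right of the line. Ribosome biogenesis and autophagy change sign at the line in all libraries, while the ER lists are highest in starved 2 and refed 3 and the cholesterol list ranges from 1.92 in refed 1 to -1.41 in refed 3.

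The autophagy list had the largest share of members that fell among the 46 lists. Of 56 tested members 22 fell, none rose and 34 passed no test, a median of -0.73. With 12 libraries 30 fell. Without starved replicate 2, the leave-out with the most calls, 18 fell, beside 306 of all 11804 tested genes. Without starved replicate 3 only 55 of all tested genes were called lower. Of the 22 members, ulk1a, ulk1b, ulk2, pik3r4 and calcoco1a kept their call there. Among the 22, those of the kinase group that starts autophagosomes were ulk1a, ulk1b, ulk2, ulk3, atg101 and rb1cc1. ulk2 was at 32.2, 34.9 and 30.1 TPM in starved and 3.85, 5.51 and 3.12 TPM in refed fish (-2.72 ± 0.25, limma adjusted p = 0.0111). ulk1b was at 2.83, 3.5 and 2.51 TPM against 0.21, 0.19 and 0.16 TPM (-1.73 ± 0.18, limma adjusted p = 0.0111). In both genes the 3 values of each group were close and the groups far apart.

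Later steps of autophagy were also represented. pik3r4 and ATG14, of the lipid kinase complex, fell by 1.73 and 1.99, the lipid transfer genes ATG2A and ATG2B fell by 1.88 and 1.07, and WDR45 fell by 2.02. The membrane scramblase genes atg9a and atg9b fell by 1.53 and 1.46, the protease genes atg4a and atg4b fell by 1.75 and 1.49, and map1lc3a and map1lc3b, the LC3 proteins that coat the autophagosome, fell by 1.63 and 2.07. Among receptors that pick the cargo, calcoco1a, which targets the ER, was at 9.66, 11.01 and 9 TPM in starved and 1.12, 0.64 and 0.52 TPM in refed fish (-2.64 ± 0.22, limma adjusted p = 0.0101). The calcoco1a groups were tight and well apart. nbr1a fell by 1.56, and the mitochondrial receptors bnip3 and bnip3lb fell by 1.35 and 1.73. stx17, which fuses autophagosomes with lysosomes, fell by 1.04. By symbol stem, 8 of 17 tested atg genes fell (47.1%). These are genes already counted in the list, so this is no separate result.

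Of 80 lysosome genes 6 fell and none rose (median -0.34, 15 and 5 with 12 libraries). mcoln1b, a calcium channel of the lysosome membrane, was at 6.99, 6.33 and 7.04 TPM in starved and 1.87, 2.2 and 1.68 TPM in refed fish, with no overlap and little spread (-1.42 ± 0.19, limma adjusted p = 0.0155). The others were the cystine exporter gene ctns, cln3, the enzyme genes ids and GLB1L, and ctsla (1 of many), falling by 1.06 to 1.71. Of 39 ubiquitin ligase and F-box genes 6 fell and none rose: fbxl2, fbxl20, fbxo25, rnf144aa, nedd4l and usp2b, a deubiquitinase. fbxl2 went from 20.8, 19.04 and 19 TPM to 5.12, 5.34 and 4.78 TPM, the tightest of them (-1.76 ± 0.20, limma adjusted p = 0.0125).

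Among 44 genes listed for nutrient sensing around mTORC1 10 fell and none rose (median -0.39, 15 and 2 with 12 libraries). The 10 include ypel3, ypel5 and a second entry named YPEL5, for which no role in this sensing is given here. List members were chosen with earlier results of these data known, so these entries add nothing to a result about mTORC1. Besides them and ddit4, the falls came from both arms of the amino acid sensor on the lysosome, among others. nprl2, of the GATOR1 complex that inhibits mTORC1, was at 5.4, 7.84 and 4.61 TPM in starved and 0.42, 0.79 and 0.72 TPM in refed fish (-2.06 ± 0.24, limma adjusted p = 0.0125). wdr59, of GATOR2, which opposes GATOR1, was at 4.18, 6.12 and 4.55 TPM against 0.47, 0.62 and 0.65 TPM (-1.90 ± 0.20, limma adjusted p = 0.0120). Both were far lower in every refed library. wdr24, also of GATOR2, fell by 1.17, castor2, related to the arginine sensor, fell by 0.98, flcn fell by 0.83 and akt1s1, an inhibitory subunit of mTORC1, fell by 0.95. The kinase gene mtor itself had overlapping values of 4.37 to 7.28 TPM and 4.64 to 5.04 TPM (-0.24 ± 0.24, limma adjusted p = 0.556). sesn1 and sesn2, the sestrins that sense leucine in mammals, gave -0.33 ± 0.47 and 0.68 ± 0.26 (limma adjusted p = 0.690 and 0.143), sesn2 passing the threshold with 12 libraries (limma adjusted p = 0.0496).

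In insulin signalling 6 of 39 genes fell and 2 rose. irs2b was at 15.4, 39.7 and 13.1 TPM in starved and 0.67, 0.21 and 5.23 TPM in refed fish, refed replicate 3 being the highest refed value yet under all starved ones. irs4a fell by 1.28 ± 0.18, the kinase gene pdpk1a by 1.51 ± 0.18 on the same scale, the receptor gene insrb by 1.03, and socs2, a brake on growth hormone signalling, fell by 2.97 ± 0.60. trib2, a pseudokinase gene, rose from 1.95, 4.3 and 2.45 TPM to 8.46, 15.8 and 18.5 TPM, by 1.95 ± 0.36 (limma adjusted p = 0.0257).

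FoxO genes were uneven. foxo3a rose by 2.29 ± 0.49, from 1.36, 1.49 and 1.2 TPM to 4.1, 13.9 and 18.9 TPM (limma adjusted p = 0.0359). Its copy foxo3b was at 11.3, 41.03 and 37.4 TPM in starved and 68.0, 8.66 and 7.4 TPM in refed fish, and foxo1a at 1.43, 7.55 and 24.9 TPM against 14.2, 0.18 and 0.36 TPM. Refed replicate 1 was the highest refed library for foxo3b and foxo1a and the lowest for foxo3a, and neither foxo3b (-0.61 ± 0.88, limma adjusted p = 0.694) nor foxo1a (-1.49 ± 1.18, limma adjusted p = 0.458) was called. igfbp1a, which binds insulin-like growth factors, had 333, 49.8 and 42.3 TPM against 38.8, 13.3 and 16.9 TPM (-2.06 ± 0.82, limma adjusted p = 0.156). igf2bp3, an RNA-binding protein gene, rose by 1.403 ± 0.19, and igf1 did not reach the expression filter.

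Transcription factors of the first hours after a stimulus split. egr1, an immediate early gene, was at 9.5, 1.46 and 5.14 TPM in starved and 35.9, 25.9 and 38.3 TPM in refed fish (2.65 ± 0.52, limma adjusted p = 0.0296). csrnp1b went the other way, from 45.8, 68.7 and 44.6 TPM to 8.76, 6.69 and 7.98 TPM (-2.59 ± 0.27, limma adjusted p = 0.0111). In both genes the groups were clearly apart. Of 57 members of this list 3 rose (cebpa, egr1 and ZFP36L2 (1 of many), which encodes a protein that destabilizes mRNAs) and 4 fell (csrnp1b, btg2, cebpd and gadd45aa).

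The C/EBP genes differed from each other. While cebpa rose, cebpd fell from 255, 292 and 182 TPM to 103, 43.2 and 61.1 TPM (-1.86 ± 0.38, limma adjusted p = 0.0325), and cebpb overlapped at 156, 254 and 159 TPM against 83.7, 115 and 181 TPM (-0.61 ± 0.37, limma adjusted p = 0.324). cebpa was thus under 10 TPM in starved fish, where cebpd was above 180 TPM. The growth regulator genes mycb, at 193, 231 and 60.2 TPM against 5.77, 24.9 and 91.9 TPM, and myca, at 4.85, 11.99 and 10.54 TPM against 1.61, 4.3 and 43.5 TPM, overlapped (-2.47 ± 0.96 and -0.17 ± 0.98, limma adjusted p = 0.150 and 0.929). For both, refed replicate 3 was the highest refed library. The sign of myca turned with starved replicate 2 left out (0.05) and with refed replicate 1 (0.68) or 2 (0.17) left out.

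Of 60 hepatocyte factors and nuclear receptors none rose and 5 fell (median -0.45). pparda, a fatty acid receptor, was at 31.1, 43.3 and 31.4 TPM in starved and 10.9, 9.71 and 8.52 TPM in refed fish, well apart (-1.75 ± 0.25, limma adjusted p = 0.0167). The retinoic acid receptor gene rarab fell by 1.58 ± 0.23, the vitamin D receptor gene vdrb fell by 1.295 ± 0.24 and the co-activator gene ncoa1 fell by 0.88 ± 0.21. hnf4a, which keeps the hepatocyte programme on, overlapped (-0.45 ± 0.39, limma adjusted p = 0.488), as did ppargc1a, a co-activator of fasting metabolism (1.15 ± 0.77, limma adjusted p = 0.375), and xbp1 (0.72 ± 0.72, limma adjusted p = 0.562). atf4a, at 51.9, 67.5 and 65.7 TPM in starved and 92.6, 72.1 and 117 TPM in refed fish, did not overlap but did not pass the threshold (0.58 ± 0.28, limma adjusted p = 0.226).

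No gene of the circadian clock list passed the limma threshold among 37 tested (4 at an unadjusted p under 0.05), with 1 higher and 1 lower when 12 libraries were fitted. per1b, which responds to light and feeding, gave 0.64 ± 0.32 and nr1d1 -0.66 ± 0.39 (limma adjusted p = 0.247 and 0.314). Time of day was not given in the sources used here.

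In fatty acid oxidation 9 of 54 genes fell and none rose, with a median of -0.58 (14 and 1 with 12 libraries). Besides pdk4 and cpt1b these were acsl4b, which activates long-chain fatty acids, crot and hsd17b4 of peroxisomes, acadvl of mitochondria, the lipase genes mgll and pnpla2, and mlycd, which removes malonyl-CoA, the inhibitor of fatty acid import. acsl4b was at 17.5, 34.3 and 36.6 TPM in starved and 2.68, 3.18 and 3.61 TPM in refed fish (-2.81 ± 0.32, limma adjusted p = 0.0125). mlycd was at 10.9, 17.7 and 15.4 TPM against 2.58, 3.27 and 4 TPM (-1.86 ± 0.26, limma adjusted p = 0.0167). For both the refed values were close together and low. acacb, the carboxylase that makes malonyl-CoA at mitochondria, fell by 2.70 ± 0.23, from 9.07, 13.2 and 11.8 TPM to 1.21, 0.7 and 0.79 TPM, so genes for making and for removing malonyl-CoA both fell.

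In fatty acid and triglyceride synthesis 7 of 49 genes rose and acacb was the 1 that fell. Beside scd and fasn, the NADPH-producing gene pgd of the pentose phosphate pathway rose by 1.47, and gpam, agpat5 and fitm2 of glycerolipid and droplet formation rose by 1.44, 1.14 and 1.92.

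Cholesterol genes showed a split among refed fish and no call by limma in 32 tested (3 at an unadjusted p under 0.05, and 1 lower with 12 libraries). The list's median deviation was 1.92 in refed replicate 1, -0.09 in refed replicate 2 and -1.41 in refed replicate 3, against -0.88, 0.94 and -0.50 in starved libraries. Refed replicate 1 was the highest of the 6 libraries for 23 of 32 members (71.9%, against 13.9% of all tested genes) and refed replicate 3 the lowest for 19 (59.4%, against 11.2%). hmgcra, the rate-limiting enzyme gene, was at 0.35, 19.7 and 0.83 TPM in starved and 119, 4.15 and 0.43 TPM in refed fish, and fdps at 5.99, 45.9 and 11.8 TPM against 163, 19.2 and 3.58 TPM (both chosen after their values were seen). For both genes refed replicate 1 was the highest of the 6 libraries and refed replicate 3 the lowest refed one. The sign of the list median turned when libraries were left out, and no direction is given for it.

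Sugar metabolism had calls on both sides. gck, glucokinase, was at 0.42, 2.79 and 1.04 TPM in starved and 125, 150.0 and 2.58 TPM in refed fish (4.20 ± 1.37, limma adjusted p = 0.101). Refed replicate 3 lay among the starved libraries, and without it gck passed the threshold (limma adjusted p = 0.0474). gck was singled out after its values were seen. In the glycolysis list 3 of 36 genes rose (dlat by 1.503 ± 0.22, pfkfb2b by 1.90 ± 0.30 and pgam1a by 1.63 ± 0.30) and 2 fell. The enzymes that set fructose 2,6-bisphosphate, an activator of glycolysis, were thus opposed, as pfkfb2b rose from 1.89, 0.99 and 3.12 TPM to 10.47, 9.88 and 8.88 TPM and pfkfb4b fell from 25.3, 100.4 and 89.5 TPM to 16.0, 3.07 and 7.17 TPM (-2.91 ± 0.68). txnipa, which limits glucose uptake in mammals, fell by 2.90 ± 0.60, from 155, 236 and 171 TPM to 19.9, 10.5 and 62.1 TPM. In both genes that fell the groups did not overlap.

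Of 35 genes of gluconeogenesis and glycogen 4 fell and 1 rose. Besides g6pca.2, these were the glycogen genes ppp1r3b, which targets a phosphatase to glycogen, gyg2, glycogenin, and phka2, of phosphorylase kinase, which fell by 1.49 ± 0.34, 1.63 ± 0.38 and 0.87 ± 0.21. ppp1r3b was at 72.7, 112 and 103 TPM in starved and 48.3, 31.6 and 23.4 TPM in refed fish, a narrow gap (limma adjusted p = 0.0440). The one that rose, g6pc3, is another glucose-6-phosphatase gene, and it rose by 1.25 ± 0.28.

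In amino acid breakdown 4 of 72 genes rose and 2 fell (13 and 5 with 12 libraries). aass, the first step of lysine breakdown, was at 17.6, 25.0 and 27.04 TPM in starved and 57.4, 85.2 and 77.7 TPM in refed fish (1.62 ± 0.29, limma adjusted p = 0.0231). fah, the last step of tyrosine breakdown, rose from 28.9, 73.7 and 46.2 TPM to 118, 217 and 240.2 TPM, by 1.96 ± 0.43, and dhtkd1, further down the lysine path, by 1.23 ± 0.28. The refed values of all 3 lay above the starved ones. tdo2b, the first step of tryptophan breakdown, fell from 549, 470 and 389 TPM to 204, 162 and 174 TPM (-1.37 ± 0.25, limma adjusted p = 0.0248), and glula was the other that fell. Of 27 amino acid transporters none rose and slc43a2a, slc7a8a and slc38a7 fell, the latter pair by 1.13 ± 0.26 and 0.96 ± 0.20. In this list 2 rose under each of the 3 scalings, beside 735 to 827 of all 11804 tested genes. With 12 libraries fitted 4 rose and 5 fell.

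Among 48 other solute transporters 5 fell and 1 rose. slc16a6a, which exports ketone bodies from zebrafish liver, was at 36.4, 19.4 and 23.1 TPM in starved and 11.9, 6.17 and 6.46 TPM in refed fish, without overlap (-1.58 ± 0.35, limma adjusted p = 0.0396). The nucleoside transporter gene slc29a1b fell by 1.35 ± 0.24 and slco2b1, an organic anion transporter, fell by 1.33 ± 0.25. slc22a16 and slc40a1 were the remaining falls, and slc16a9b rose by 1.38 ± 0.32, a call that ended with 12 libraries.

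Iron import and export genes were both called lower. The transferrin receptor gene tfr1b, which takes iron up, was at 259, 252 and 468 TPM in starved and 57.5, 66.1 and 44.8 TPM in refed fish, far apart (-2.47 ± 0.33, limma adjusted p = 0.0155). slc40a1, ferroportin, which lets iron out, fell by 1.17 ± 0.24, a call that ended with 12 libraries, and ireb2, an RNA-binding regulator of both, rose by 1.12 ± 0.26. In the same list of 33 hypoxia and iron genes epas1a (HIF-2 alpha) fell by 1.41 ± 0.23 and bnip3 fell, while ankrd37 rose by 2.27 ± 0.50, from under 0.5 TPM to 3.38, 2.82 and 13.8 TPM.

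Signalling and immune lists had few calls. In the Wnt, Notch, BMP and TGF-beta list 5 of 55 genes fell and none rose (11 and 1 with 12 libraries). Besides fzd9b these were nkd3, of the Naked family of Wnt inhibitors, from 49.2, 24.6 and 46.5 TPM to 8.24, 3.59 and 3.85 TPM (-2.74 ± 0.39, limma adjusted p = 0.0167), and bambia, a decoy receptor for BMP and TGF-beta, from 26.9, 61.5 and 55.6 TPM to 9.69, 3.62 and 7.55 TPM (-2.62 ± 0.44, limma adjusted p = 0.0210). Both were low in all refed fish. smad1 and acvr2aa fell by 0.88 and 1.11. Of 39 interferon genes irf7, from 42.5, 16.8 and 24.4 TPM to 1.74, 1.37 and 2.26 TPM, and stat2 (-1.57 ± 0.33) fell and none rose.

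In the cell cycle list 1 of 27 genes rose and 2 fell. cdk4, the kinase of G1 entry, rose from 1.37, 2.64 and 2.92 TPM to 10.2, 12.5 and 15.8 TPM, by 2.08 ± 0.28 (limma adjusted p = 0.0159), whereas mcm7, of the replicative helicase, fell by 1.90 ± 0.31 and e2f3 fell by 1.01 ± 0.21. Genes of secreted proteins and of detoxification gave few calls. Of 54 complement, coagulation and acute phase genes none was called by limma in the fit of 6 or of 12 libraries (2 at an unadjusted p under 0.05 in the former). lipg, a lipase, was the only call of 37 apolipoprotein and lipid transport genes (1.58 ± 0.28), hsd17b4 the only one of 18 bile acid genes, and ugt5a1 (1.24 ± 0.23) and cyp2u1 the only ones of 39 P450 and conjugation genes. In the redox list of 42 genes nqo1 (1 of many) rose by 1.43 ± 0.34 and keap1b, the inhibitor of the NRF2 pathway, fell by 1.32 ± 0.28.

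Fish carry many genes in pairs named a and b, and 654 such pairs had both members tested. Both rose in 3 pairs (hnrnpaba and hnrnpabb, hspa4a and hspa4b, slc9a3r1a and slc9a3r1b) and both fell in 8 (ATG2A and ATG2B, atg4a and atg4b, atg9a and atg9b, klhl24a and klhl24b, map1lc3a and map1lc3b, nupr1a and nupr1b, tbcela and tbcelb, ulk1a and ulk1b), 1.68% of pairs together. Of the 8 pairs that fell together 5 were of the autophagy list, whose falls are described above. The share of autophagy pairs among all 654 was not counted, so this adds nothing to the list result. The exportin pair was the 1 called in opposite directions (0.153%), 1 member alone was called in 91 pairs and neither in 551. Some pairs by name, such as cebpa with cebpb or ATG2A with ATG2B, are related genes of all vertebrates rather than copies made in fish, and 12 opposite pairs were called with 12 libraries fitted.

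The same meal was given to Pachón cavefish, in libraries of their own that share only the estimate of the spread in a fit of 12 libraries. Of the 406 genes that rose in surface fish, 396 (97.5%) were above 0 in Pachón cavefish, where 61.1% of all tested genes were, and 364 were called higher there, against 24.1% of all tested genes. Of the 571 that fell, 540 (94.6%) were below 0, where 38.9% of all genes were, and 364 were called lower and 3 higher, against 7.61% called lower overall. The difference between the populations in response to the meal passed the limma threshold for 9 of 13157 genes (0.0684%). Among the 194 genes chosen for naming the smallest adjusted p of this limma test was 0.0809, for si:ch211-153b23.5. Of the 977 genes called in surface fish 4 were among the 9.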

How the data were processed

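The deposited values are TPM per gene and library, computed by the authors. The submitters' processing notes name bcl2fastq 2.18, STAR 2.6.1c, Bowtie2 and RSEM, while the role of each, the genome build and the annotation were not given in the sources used here. The labels' protocols describe stranded libraries from polyA RNA. The 27420 genes listed include 18187 with a symbol, which was used as given.

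The test was limma 3.58.1 (R 4.3.3) on log2(TPM + 1) over the 6 surface fish libraries, for genes reaching 1 TPM in 3 or more of them, with group means, an eBayes prior with trend, 4 residual degrees of freedom and Benjamini-Hochberg adjustment at 0.05. Fold changes are on the log2(TPM + 1) scale and understate changes of low genes. The test was also run on simulated data with independent normal noise in each gene. That setting had no outlying libraries or correlated genes, so it does not bear on the dependence of the calls on single libraries.

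Named genes are the 15 largest rises and falls with a symbol and a group mean of 5 TPM or more, the 8 largest rises and falls in TPM, the 4 called members of each list with the smallest p (all where at most 6 were called), a/b pairs called in opposite directions, and a fixed set of regulators. Further called members are named where a list is described in full. A few called members are counted in their lists and not reported here by name or value. Members and gene lists were chosen with earlier results of these data known. Alternatives were another pseudocount, filters, scalings, library weights, all 12 libraries, a replicate block and leaving out libraries.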

Additional observations from a re-analysis of the deposited data

Results flagged for a closer look

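The response to the meal differed between surface fish and Pachón cavefish, by the limma test of the difference over 12 libraries, for 4 genes called in surface fish. They were chosen after their values were seen, and no explanation was tested. NEK3, which encodes a kinase of the NIMA family, was at 2.25, 2.06 and 2.08 TPM in starved and 0.34, 0.37 and 0.23 TPM in refed surface fish, and at 1.77, 2.14 and 2.74 TPM in starved and 4.72, 7.18 and 4.56 TPM in refed Pachón cavefish. It thus fell in surface fish by 1.25 ± 0.16 and rose in cavefish by 1.00 on the log2 scale, a difference of 2.25 ± 0.26 (limma adjusted p = 0.0346). The other 3 carry no symbol and are named by their identifiers. ENSAMXG00000030765 was at 4.8, 2.51 and 2.22 TPM in starved surface fish and listed at 0 in all other libraries, a difference of 2.01 ± 0.29 (limma adjusted p = 0.0371). ENSAMXG00000038049 was at 8.84, 18.2 and 19.5 TPM in starved and 0.6, 1.06 and 0.57 TPM in refed surface fish, with 1.1 to 3.5 TPM in cavefish, a difference of 2.82 ± 0.42 (limma adjusted p = 0.0434). ENSAMXG00000039180 was at 43.5, 10.97 and 17.1 TPM in starved surface fish and at most 0.35 TPM in every other library, a difference of 3.97 ± 0.52 (limma adjusted p = 0.0371). Since ENSAMXG00000030765 and ENSAMXG00000039180 were at or near 0 in cavefish in both feeding states, no fall could show there. For these genes the difference restates the fall in surface fish.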

How the results depend on the processing

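The 977 calls (406 higher, 571 lower) became 905 with a pseudocount of 0.1, 164 (47, 117) with no filter, 640 (331, 309) at 5 TPM, 1525 (827, 698) with median-of-ratios scaling, 1413 (735, 678) with quantile normalization, 1427 (770, 657) when the 20 most abundant genes were taken out of the TPM total, 1772 (862, 910) with library weights and 2504 (1221, 1283) with 12 libraries. Leaving out 1 library gave 3 to 597 calls (1 to 291 higher, 2 to 306 lower), from fits with fewer libraries. With both starved replicate 2 and refed replicate 3 left out, an alternative chosen after seeing the data, limma called 0 genes (0 higher, 0 lower) in 2 against 2 libraries (2588 at an unadjusted p under 0.05) and 1597 (839, 758) with the other 10 libraries in 1 fit, 794 of them among the 977. All 977 kept their sign under the 3 scalings and the weights, and with libraries left out they had to, since their groups do not overlap. Of 178 named calls, 168 held under all 4 scalings and weights and 143 in the fit of 10 libraries. The replicate block gave 0 calls by limma (0 higher, 0 lower, 2511 at an unadjusted p under 0.05, smallest adjusted p 0.0615). Deviations of same-numbered libraries from their group means correlated at -0.21, -0.16 and -0.18. With 3 libraries per group such values cannot show whether the numbers pair the libraries, and the labels do not say.

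Paralog pairs called the same way numbered 11, and 2 with no filter, 6 at 5 TPM, 33 with 12 libraries, 0 with the block or 2 against 2, and 0 to 11 with 1 library left out. Opposite pairs numbered 1, and 0 with no filter, 2 at 5 TPM, 12 with 12 libraries, 3 with each of the 3 scalings, 5 with weights, 0 with the block or 2 against 2, 3 in the fit of 10 libraries and 0 to 2 with 1 library left out. Marker lists without overlap numbered 2, with cd3eap counted among the lymphocyte markers, and 2 to 7 with 1 library left out. Signs turned for uncalled genes only: sesn1 to 0.11 with weights and 0.049 without refed replicate 1 (-0.71 to 0.049 with 1 library left out), myca to 0.050, 0.68 and 0.17 without starved replicate 2, refed replicate 1 and refed replicate 2 (-1.36 to 0.68 with 1 left out), and foxo3b to 0.25 in both fits without the doubted libraries. The cause of these shifts was not tested.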
